A study of Mus musculus with 23 samples.

Results

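The genes described here carry long-chain fatty acids into gastrocnemius muscle of male C57BL/6J mice and oxidise them there: 34 genes taken by name from a list of proteins of uptake, lipolysis, acyl-CoA activation, carnitine transfer, malonyl-CoA control, β-oxidation and its transcriptional regulators. All 34 of the 34 had a probe on the one-colour Agilent arrays, passed the filter on dim probes and were well above background on all 23 arrays, and none was saturated on any. They stood among 23707 genes or unnamed transcripts tested. The mice were 5 or 24 months old at the start and 6 or 25 months old at sampling, and were run on a treadmill every day for 4 weeks or shown the switched-off treadmill. The groups were old HIIT (high-intensity intermittent training: 3 bouts at 27 m/min, each 2 min long, parted by 1 min at a recovery pace of 5 m/min), old MICT (moderate-intensity continuous training: 1 run of 45 min at 13 m/min) and old sedentary control, with 4 arrays each, and adult HIIT with 4, adult MICT with 3 and adult sedentary control with 4. All mice were singly housed on chow, and muscle was taken after 12 h of rest, so the values describe trained muscle and not muscle just after a run. The labels do not say that each array came from its own mouse, so p-values measure the spread between these arrays. The muscle is a mixture of cells, and fewer cells of a type and less RNA per cell cannot be told apart.

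Fatty acids reach a muscle fibre from lipoproteins cleaved at the capillary wall and from the fibre's own lipid droplets. They are bound and carried through the cell, linked to coenzyme A, moved into mitochondria as carnitine esters and shortened there by repeated rounds of dehydrogenation, hydration, a second dehydrogenation and thiolysis. Malonyl-CoA blocks the carnitine step, so the enzymes that make and destroy it set how much fat enters the mitochondrion. The nuclear receptors PPARα and PPARδ bind fatty acids and drive many genes of the pathway in muscle, where endurance training is known to raise its capacity.

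Each value below is a scaled log2 signal, the log2 of the processed spot signal minus the 75th percentile of its array, so that 1 unit is a 2-fold change. Each difference is on the same log2 scale and is given ± its standard error from limma fitted to all 23 arrays, and a gene is called changed, "rose" or "fell", at a Benjamini-Hochberg adjusted p under 0.05 over all 23707. Signals of different genes come from different probes and are not compared. The arrays lay on 3 slides: old HIIT with old MICT, adult MICT with old control, and adult HIIT with adult control. The comparisons of adult HIIT with adult control and of old HIIT with old MICT were therefore made within a slide, while in every other comparison the groups lie on different slides. Slide could then be taken into account only in a model that assumes that each regimen acts alike at both ages. That model has as many terms as groups. It takes the HIIT difference at both ages from adult HIIT against adult control. To this it adds old MICT against old HIIT to give the MICT difference at both ages. Its difference between old and adult control takes in signals of all groups, trained ones included. All 8 muscle fibre markers were above background in every group. Their score, the median deviation of a list's genes from the adult control mean, was 0.27, 0.07, -0.18 and 0.37 on old MICT 1 to 4, against -0.71, -0.61, 0.32 and -0.21 on old controls 1 to 4. The old controls with the lowest fibre scores, 1 and 2, were also those with the highest lymphocyte marker scores, given beside the results.

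In old mice, continuous training went with higher signals of most of the pathway. In old MICT against old control 22 of the 34 genes rose and 0 fell, a share of 64.7% beside 21.2% called higher and 9.03% called lower among all 23707 features. The median difference of the 34 was 0.62, against 0.19 over all features, and 32 of the 34 differences were above 0, against 64.3% of all features. The signals of 10 of the 34 did not overlap between the groups, all of them higher in old MICT, a share of 29.4% beside 16.5% of all features. The genes that rose were spread over every step, from the fatty acid transporter Slc27a1 to the receptor gene Ppard. The number called depended on single arrays: it was 6 without old control 2, 7 without old control 1, 14 without old control 4, 8 without old MICT 1 and 11 without old MICT 3. It was 0 when only the arrays of these 2 groups entered the fit, a fit in which 0 of all features were called. With slide as a term it was also 0. In that model 33 of the 34 differences were above 0 with a median of 0.41, but no old control signal enters them. They therefore do not check the comparison with old control. Under quantile scaling of the arrays 7 genes were called and the median was 0.38.

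**Figure D1:**
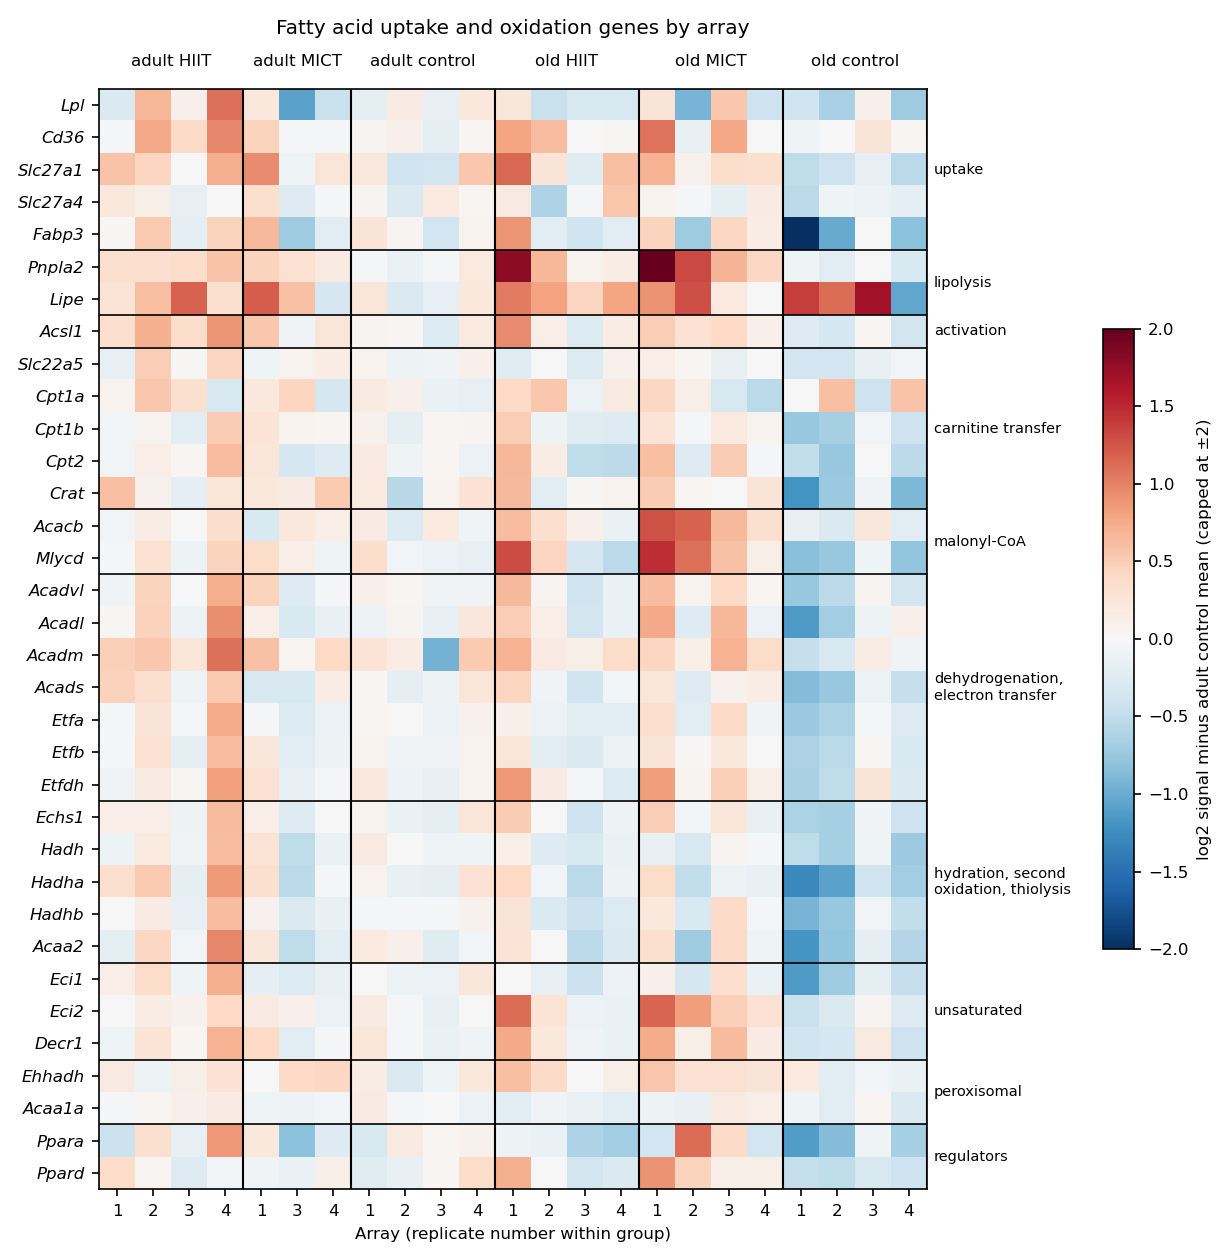
Signal of the 34 genes (rows, grouped by step) on each of the 23 arrays (columns, by group), as the difference in log2 signal from the mean of the 4 adult control arrays, capped at 2 either way. Old controls 1 and 2 are low in most rows and old control 3 lies near the adult controls, while Pnpla2, Mlycd and Eci2 are highest on old MICT 1 and 2 and on old HIIT 1.

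Among the 34 genes Mlycd, with 1.44, and Pnpla2, with 1.27, had the largest differences. Mlycd, whose product malonyl-CoA decarboxylase removes malonyl-CoA, had signals of 7.09, 6.72, 6.21 and 5.74 on the old MICT arrays, against 4.79, 4.86, 5.54 and 4.83 on the old control arrays. Every old MICT array was above every old control array, and old control 3 was the closest to them. The group means were 6.44 ± 0.59 in old MICT and 5.00 ± 0.36 in old control (SD, n = 4 each), a difference of 1.44 ± 0.32, or 2.71-fold (limma, adjusted p = 0.00544). Acacb encodes the acetyl-CoA carboxylase that makes malonyl-CoA at the mitochondrial surface, the opposite reaction, and it rose too. Its signals were 7.09, 7.0, 6.47 and 6.14 in old MICT, against 5.67, 5.53, 6.05 and 5.60 in old control. The groups did not overlap, and the difference was 0.96 ± 0.20 (limma, adjusted p = 0.00429, the smallest of the 34). Both genes of malonyl-CoA turnover thus rose, the one that makes it and the one that removes it.

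Of the lipolysis genes 1 of 2 rose. Pnpla2, which encodes adipose triglyceride lipase, the enzyme that takes the first fatty acid from stored triglyceride, had signals of 7.97, 7.23, 6.58 and 6.33 in old MICT, against 5.83, 5.70, 5.90 and 5.60 in old control. The old controls were tight, with an SD of 0.13, and the old MICT arrays were spread, with an SD of 0.73, but the groups did not overlap and the difference was 1.27 ± 0.30, or 2.41-fold (limma, adjusted p = 0.00745). Lipe, the hormone-sensitive lipase that acts next, differed by -0.18 ± 0.45 and was not called. Its old control signals ranged from -3.24 on old control 4 to -0.53 on old control 3, the widest spread of any of the 34 genes in any group. Lipe is also strongly expressed in fat cells, and the adipocyte marker score, over 10 genes, was 0.23 on old control 4 and 3.80, 2.82 and 1.93 on old controls 1, 2 and 3. Its part in the Lipe values was not tested.

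At the entry of fatty acids into the fibre, 2 of 5 genes rose. Slc27a1, a fatty acid transport protein with acyl-CoA synthetase activity, had signals of 2.91, 2.31, 2.57 and 2.53 in old MICT, against 1.71, 1.79, 2.06 and 1.68 in old control, with no overlap. The difference was 0.77 ± 0.27 (limma, adjusted p = 0.035). Fabp3, the heart-type fatty acid binding protein that carries fatty acids through the cytosol, was at 8.51, 7.36, 8.50 and 8.22 in old MICT and at 6.08, 7.06, 8.08 and 7.26 in old control. These groups overlapped, since old MICT 2 lay below old control 3, and the difference of 1.03 ± 0.37 passed narrowly (limma, adjusted p = 0.0408). Lpl, the lipase that frees fatty acids from lipoproteins at the capillary, differed by 0.28 ± 0.32 (adjusted p = 0.508). The transporters Cd36, with 0.38 ± 0.25, and Slc27a4, with 0.23 ± 0.20, were not called either. Acsl1, the long-chain acyl-CoA synthetase that activates fatty acids in muscle, rose by 0.56 ± 0.20 (limma, adjusted p = 0.0424), with 2.67, 2.49, 2.58 and 2.28 in old MICT, against 1.93, 1.83, 2.22 and 1.81 in old control. The lowest old MICT array was only just above the highest old control array, which was old control 3.

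In carnitine transfer 2 of 5 genes rose, among them the muscle form of the gatekeeper enzyme. Crat, carnitine acetyltransferase, which exports surplus acetyl groups as acetylcarnitine, was at 1.11, 0.63, 0.59 and 0.85 in old MICT, against -0.59, -0.14, 0.53 and -0.30 in old control. The difference was 0.92 ± 0.24 (limma, adjusted p = 0.00997), and again old control 3 was the closest to old MICT. Cpt1b, the muscle carnitine palmitoyltransferase that malonyl-CoA inhibits, had 5.31, 5.00, 5.23 and 5.10 in old MICT, against 4.28, 4.37, 4.98 and 4.62 in old control. Its difference was 0.60 ± 0.17, or 1.52-fold (limma, adjusted p = 0.016). Cpt2, the inner-membrane partner enzyme, differed by 0.64 ± 0.24 and stood just past the threshold (adjusted p = 0.0514). The carnitine transporter Slc22a5 differed by 0.25 ± 0.14 and was not called. Cpt1a, the form that predominates in liver, differed by -0.27 ± 0.25 and was not called; a second, dimmer Cpt1a probe, above background on 19 of the 23 arrays, gave 0.96, so the sign for this gene depends on the probe.

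The enzymes of the β-oxidation spiral moved by similar amounts to each other. Among the acyl-CoA dehydrogenases and the electron transfer proteins that take their electrons, 5 of 7 rose (Acadvl, Acads, Etfa, Etfb and Etfdh), with a median difference of 0.60 over the 7 and a range of 0.48 to 0.72. Acads, the short-chain dehydrogenase, was at 1.68, 1.17, 1.52 and 1.59 in old MICT, against 0.57, 0.68, 1.32 and 0.98 in old control, a difference of 0.60 ± 0.19 (limma, adjusted p = 0.0248). Etfa, the α subunit of the electron transfer flavoprotein, was at 6.96, 6.41, 7.005 and 6.55 in old MICT, against 5.88, 5.99, 6.58 and 6.36 in old control, a difference of 0.53 ± 0.17 (limma, adjusted p = 0.0269). In both genes old MICT 2 fell within the range of the old controls, and old control 3 was the highest of its group. The long-chain Acadl and the medium-chain Acadm differed by 0.72 ± 0.28 and 0.58 ± 0.25 without a call (adjusted p = 0.054 and 0.0777).

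Of the 5 genes for hydration, second oxidation and thiolysis 3 rose. Hadha, the α subunit of the mitochondrial trifunctional protein, was at 2.75, 1.88, 2.28 and 2.24 in old MICT and at 1.08, 1.31, 1.98 and 1.69 in old control. Hadhb, its β subunit, was at 7.03, 6.51, 7.20 and 6.79 in old MICT and at 5.89, 6.05, 6.77 and 6.32 in old control. The 2 subunits differed by 0.78 ± 0.25 and 0.62 ± 0.19 (limma, adjusted p = 0.0268 and 0.0226), and in each the groups overlapped because of old MICT 2 and old control 3. Echs1, the short-chain enoyl-CoA hydratase, rose by 0.58 ± 0.19 (limma, adjusted p = 0.0302). Hadh and Acaa2, which carry out the second oxidation and the thiolysis of medium and short chains, differed by 0.38 ± 0.17 and 0.67 ± 0.27 and were not called.

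All 3 genes for unsaturated fatty acids rose. Eci2, an enoyl-CoA isomerase, stood at 6.42, 6.09, 5.74 and 5.56 in old MICT, against 4.82, 4.98, 5.32 and 5.00 in old control, with no overlap and a difference of 0.93 ± 0.22 (limma, adjusted p = 0.00683). Eci1, the mitochondrial isomerase, stood at 6.31, 5.87, 6.54 and 6.07 in old MICT, against 5.07, 5.48, 6.02 and 5.74 in old control, and rose by 0.62 ± 0.19 (limma, adjusted p = 0.0197). Decr1, the dienoyl-CoA reductase, rose by 0.66 ± 0.21. In the peroxisome, where very long chains are shortened, Ehhadh rose by 0.41 ± 0.15 (limma, adjusted p = 0.0472), at 0.48, 0.24, 0.23 and 0.18 in old MICT, against 0.12, -0.28, -0.13 and -0.21 in old control. The peroxisomal thiolase Acaa1a differed by 0.15 ± 0.09 and was not called; it also had the lowest standard error of the 34.

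Both receptor genes rose. Ppard, the PPARδ gene, was at 3.08, 2.63, 2.29 and 2.30 in old MICT, against 1.71, 1.67, 1.86 and 1.76 in old control. The old controls lay close together and below every old MICT array, and the difference was 0.83 ± 0.21 (limma, adjusted p = 0.00948). Ppara was at 2.01, 3.51, 2.78 and 2.02 in old MICT and at 1.28, 1.53, 2.31 and 1.73 in old control. These overlapped, and the difference of 0.87 ± 0.32 rested on old MICT 2 and 3 (limma, adjusted p = 0.0463).

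**Figure D2:**
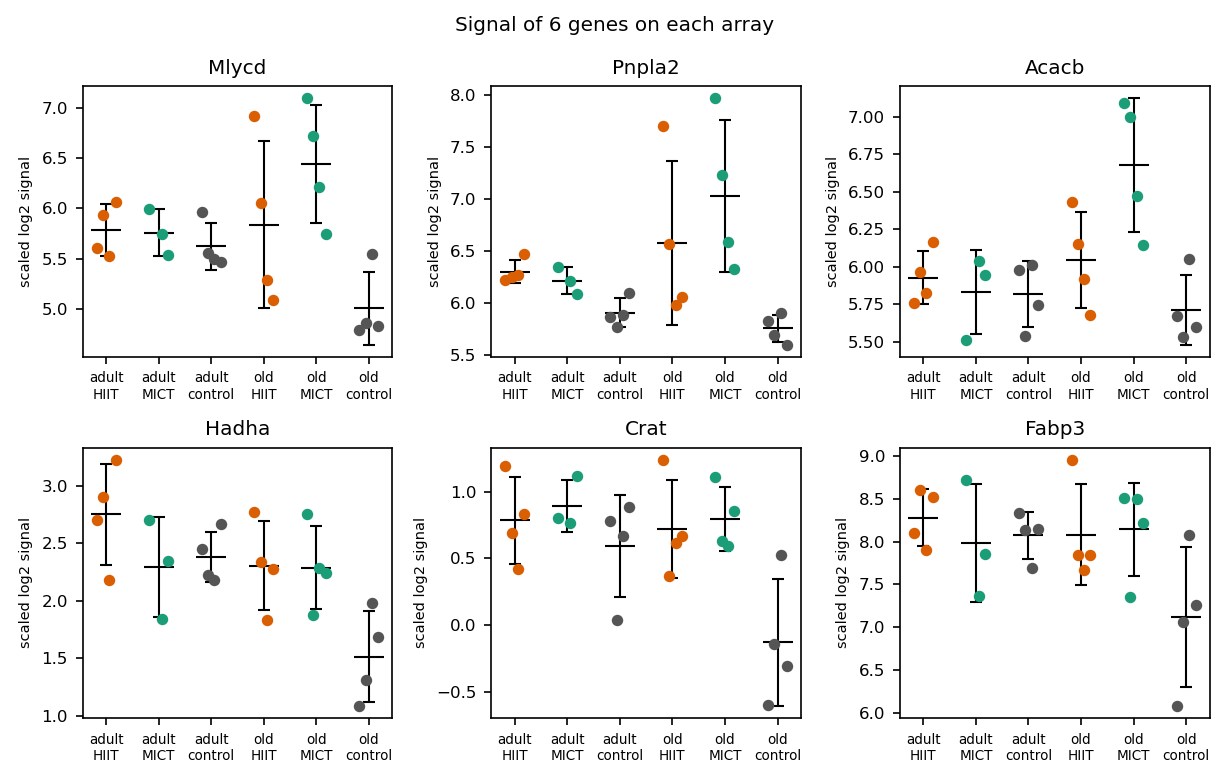
Scaled log2 signal (vertical axis) of 6 of the genes on each array, by group; points are arrays in the order of their replicate number, and the bar and whiskers are the mean and SD. By their means, Mlycd, Pnpla2 and Acacb lie higher in old MICT than in adult control, with means of 6.44, 7.03 and 6.68 in old MICT. Hadha, Crat and Fabp3 have a lower mean in old control than in any other group, 1.51, -0.13 and 7.12, but in each of them old control 3 lies within the range of old HIIT.

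Genes that act beside the 34 were taken from a second list of 90, of which 86 were tested. In old MICT against old control 31 of them rose and 6 fell, 36.0% and 6.98%. The 3 with the smallest adjusted p were Acadsb, a dehydrogenase of branched short acyl chains (0.79 ± 0.14, limma, adjusted p = 0.00291), Acot2, a mitochondrial acyl-CoA thioesterase (2.92 ± 0.56, adjusted p = 0.00363), and Pdk4, the kinase that shuts off pyruvate dehydrogenase when fat is burned (3.76 ± 0.76, adjusted p = 0.00416). Pdk4 had signals of 9.11, 8.80, 6.40 and 5.89 in old MICT, against 2.85, 3.83, 4.57 and 3.92 in old control. Arrays 1 and 2 of old MICT thus lay more than 2 units above arrays 3 and 4 of the same group. The uncoupling protein gene Ucp3 rose by 3.14 ± 0.76 (limma, adjusted p = 0.00778) and had the same split, with 3.60, 4.62, 0.48 and 0.30 in old MICT, against -1.74, -0.97, -0.23 and -0.63 in old control. Slc25a20, the carrier that exchanges acylcarnitine for carnitine across the inner membrane, rose by 0.86 ± 0.26 (limma, adjusted p = 0.0203). The lipid droplet coat gene Plin2 fell by 0.82 on the log2 scale (± 0.30, limma, adjusted p = 0.044). Ppargc1a, the coactivator of mitochondrial biogenesis, differed by 0.02 ± 0.20 (adjusted p = 0.945), and its old MICT signals of 2.21 and 2.23 on arrays 1 and 2 lay below the 3.24 and 3.06 on arrays 3 and 4.

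The 34 genes did not share one order over the arrays of a group. In old MICT array 1 was the highest for 23 of the 34 genes, and the second place split them. For 9 genes (Pnpla2, Lipe, Slc22a5, Cpt1a, Acacb, Mlycd, Eci2, Ehhadh and Ppard) the 2 highest arrays were 1 and 2, as for Pdk4 and Ucp3. For 19 genes, among them Lpl, Fabp3, Cpt1b, Cpt2, Hadha, Hadhb, Etfa and Acaa2, they were 1 and 3, and array 2 was the lowest for 18 of the 34. In old control array 3 was the highest for 29 of the 34 and array 1 the lowest for 20. In old HIIT array 1 was the highest for 30 of the 34. These orders were read off after the values were seen and carry no test.

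Most of the 34 genes had a lower mean signal in sedentary muscle of old mice than in sedentary muscle of adult mice, but few passed the test. In old control against adult control 0 of the 34 rose and 3 fell, 8.82% beside 9.07% called lower and 4.58% called higher among all features, so the share was near the background. The median difference was -0.41, against -0.15 over all features, and only 3 of the 34 (Lipe, Cpt1a and Cd36) were above 0, against 35.5% of all features. Hadha was at 1.08, 1.31, 1.98 and 1.69 in old control, against 2.44, 2.23, 2.18 and 2.66 in adult control. It fell by 0.87 on the log2 scale (± 0.25, limma, adjusted p = 0.0308), with no overlap. Eci1 fell by 0.62 (± 0.19, limma, adjusted p = 0.0348), at 5.07, 5.48, 6.02 and 5.74 in old control and 6.20, 6.10, 6.08 and 6.43 in adult control. Crat fell by 0.72 (± 0.24, limma, adjusted p = 0.0475), and its groups overlapped. The 5 genes of hydration, second oxidation and thiolysis had a median of -0.56 and each had an unadjusted p under 0.05, as had 13 of the 34 and 22.6% of all features in this direction, while the malonyl-CoA gene Acacb differed by -0.10 ± 0.20, Pnpla2 by -0.15 ± 0.30 and Ehhadh by -0.05 ± 0.15. No gene was called without any one of adult controls 1, 3 or 4 or old controls 1 or 2, 5 fell without adult control 2, and 12 fell without old control 3. The model with slide as a term gave 20 of 34 differences above 0 and a median of 0.05. In that model adult HIIT against adult MICT and old MICT against old HIIT are added to this difference. That step assumes that each regimen acts alike at both ages, so the model does not check the direction of this comparison. The 2 control groups lie on different slides, so slide and age cannot be told apart here. Markers of B and plasma cells had scores of 6.13, 4.74, 2.43 and 1.92 on old controls 1 to 4, against -0.24 to 0.015 on the adult controls. The muscle fibre score was -0.71, -0.61, 0.32 and -0.21 on old controls 1 to 4, against -0.25 to 0.28 on the adult controls. Without old controls 1 and 2 together the median of the 34 was -0.16, with 0 calls and 0 unadjusted p under 0.05. On these 2 arrays the 34 genes also lay lowest, with a median deviation from the adult control mean of -0.53 each. A smaller difference without them was therefore fixed in advance. With the lymphocyte, adipocyte and slow-twitch scores as covariates the median difference was -0.22, again with 0 calls and 0 unadjusted p under 0.05.

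Of the 86 neighbouring genes 4 rose and 5 fell in old control against adult control, 4.65% and 5.81%. The 3 with the smallest adjusted p were Plin2, which was higher by 1.22 ± 0.30 (limma, adjusted p = 0.018), Abhd5, the activator of adipose triglyceride lipase, which fell by 0.43 (± 0.12, adjusted p = 0.0283), and Acly, ATP citrate lyase of fatty acid synthesis, which rose by 1.15 ± 0.32 (adjusted p = 0.0287). Acly was at 5.19, 3.84, 3.44 and 3.06 in old control and 2.98, 2.999, 2.62 and 2.36 in adult control. The highest Acly signal was on old control 1, the array with the highest adipocyte and lymphocyte marker scores. Pdk4 differed by -1.97 ± 0.76 (adjusted p = 0.0817), Ucp3 by -1.62 ± 0.76, Slc25a20 by -0.57 ± 0.26, Acot2 by -0.56 ± 0.56 and Ppargc1a by -0.44 ± 0.20, and none of these 5 was called.

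The levels in old MICT were also set against adult control, a comparison that shares its arrays with those above. None of the 34 genes passed the test (smallest adjusted p = 0.0501; 0.249% of all features were called higher and 0.202% lower), and 5 were higher with an unadjusted p under 0.05, 14.7% beside 10.7% of all features. Those 5 were Acacb (0.86 ± 0.20), Pnpla2 (1.12 ± 0.30), Mlycd (0.82 ± 0.32), Eci2 (0.69 ± 0.22) and Ehhadh (0.36 ± 0.15). Pnpla2, Acacb, Eci2 and Ehhadh had every old MICT array above every adult control array, 11.8% of the 34 beside 5.55% of all features. The β-oxidation enzymes lay close to the adult level instead: the step of hydration, second oxidation and thiolysis had a median difference of -0.02, with Hadha at -0.09 ± 0.25 and Hadhb at 0.07 ± 0.19, and Fabp3 stood at 0.07 ± 0.37. By their means, Hadha and Eci1 were thus lower in old control than in adult control and near the adult level in old MICT, while Acacb, Pnpla2 and Ehhadh were near the adult level in old control and above it in old MICT; the difference between these patterns was seen in the values and was not tested. Counts in this comparison were 2 without old MICT 3 and 3 without old MICT 4. The median of the 34, 0.19 with 27 of 34 differences above 0, was 0.09 without old MICT 1 and 0.11 without old MICT 3. It was 0.40 with the 3 marker scores as covariates, where 33 of 34 were above 0 and 17 had an unadjusted p under 0.05. With slide as a term it was 0.47, but that model builds this difference from the signals of all groups. It counts adult HIIT against adult control and old MICT against old HIIT more than once, so it does not check this comparison.

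**Figure D3:**
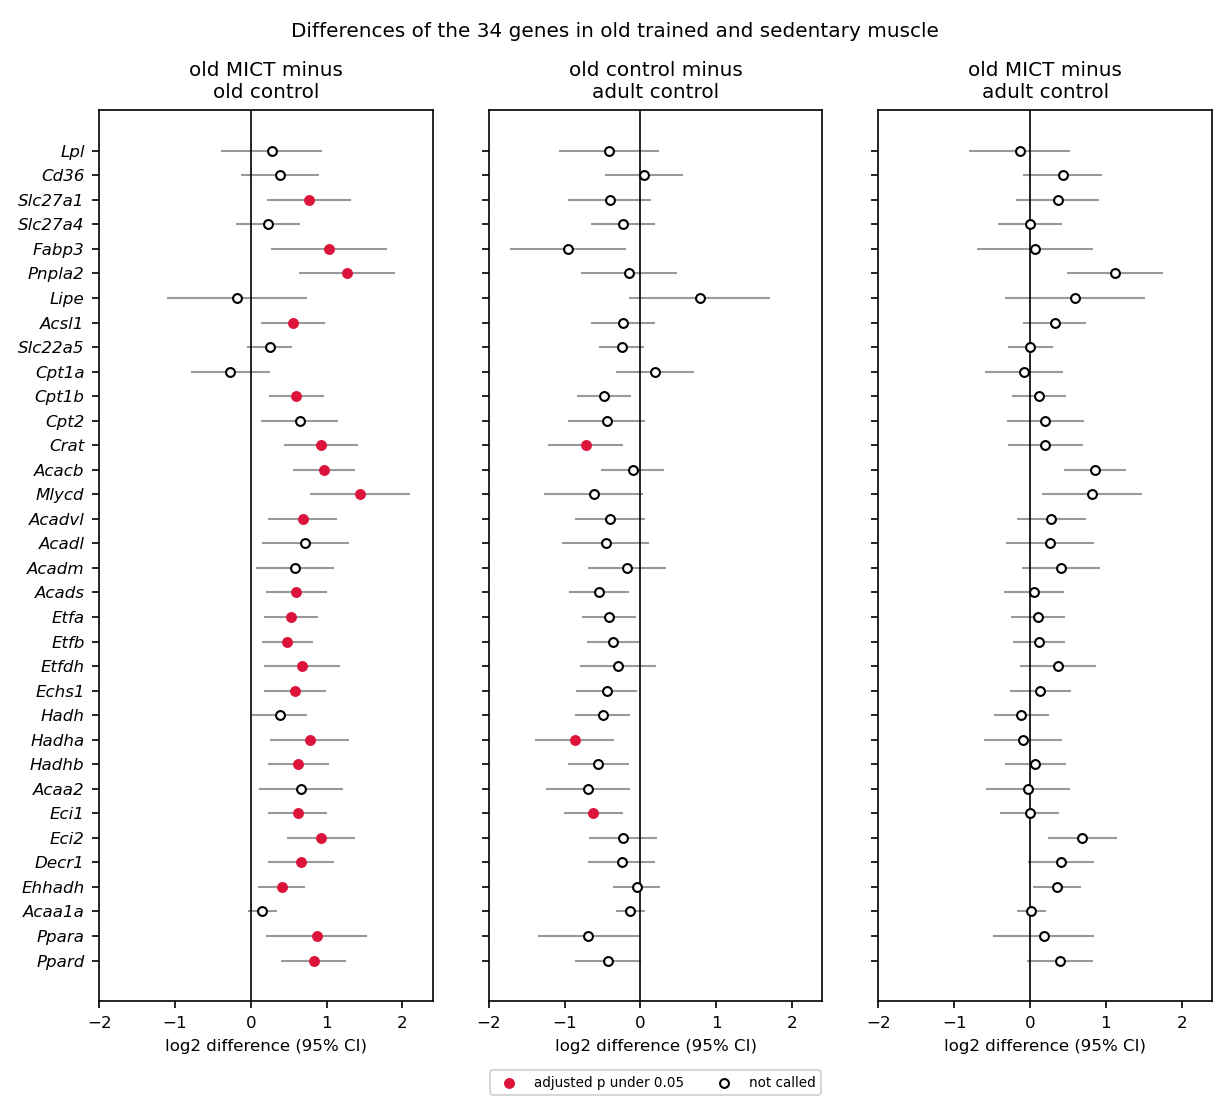
Log2 difference (horizontal axis, bars are 95% confidence intervals from limma) of each of the 34 genes in 3 comparisons; red points passed an adjusted p of 0.05. In old MICT minus old control 22 points are red, in old control minus adult control 3, and in old MICT minus adult control none, where Pnpla2, Acacb, Mlycd and Eci2 lie farthest to the right.

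After interval training in old mice the differences from old control passed no test. In old HIIT against old control 32 of the 34 differences were above 0, against 60.2% of all features, with a median of 0.44 against 0.075 over all features. None was called (limma, smallest adjusted p = 0.115, for Crat; 0.426% of all features were called higher and 0.00844% lower), and 16 were higher with an unadjusted p under 0.05, 47.1% beside 10.7% of all features. Crat was at 1.24, 0.37, 0.61 and 0.67 in old HIIT, against -0.59, -0.14, 0.53 and -0.30 in old control, a difference of 0.85 ± 0.24. Mlycd, at 6.92, 6.05, 5.29 and 5.09 in old HIIT, and Pnpla2, at 7.70, 6.57, 5.98 and 6.06, had their highest signals on array 1. Without old HIIT 1 the median of the 34 was 0.24, with 3 genes at an unadjusted p under 0.05. Without old control 3 the count called was 2. Without old controls 1 and 2 together the median was 0.23, again with 3 genes at an unadjusted p under 0.05. With slide as a term the median was 0.20, but that model takes this difference from adult HIIT against adult control. No old signal enters it, so it does not check the result in old mice. Scores of B and plasma cell markers stood at 1.15, 4.26, 0.95 and 1.245 on old HIIT 1 to 4, against 6.13, 4.74, 2.43 and 1.92 on old controls 1 to 4. The keratinocyte score, over 5 genes of skin, was 1.20, 5.07, 6.54 and 7.65 on old HIIT 1 to 4, against 0.23, 8.435, 4.51 and 1.62 on old controls 1 to 4. The part of the skin markers in these values was not tested. The 2 regimens in old mice, on one slide, were not separated: in old HIIT against old MICT 5 of the 34 differences were above 0 (38.2% of all features), the median was -0.14 against -0.09 over all features, and 0 genes were called, as were 0% of all features (limma; 1 of the 34 was lower with an unadjusted p under 0.05, as were 11.2% of all features). That gene was Acacb, at 6.43, 6.15, 5.92 and 5.68 in old HIIT and 7.09, 7.0, 6.47 and 6.14 in old MICT, a difference of -0.63 ± 0.20 (adjusted p = 0.209). The median was -0.30 without old HIIT 1, where 7 genes had an unadjusted p under 0.05, and -0.06 without old MICT 1. Against adult control, old HIIT had 19 of 34 differences above 0, a median of 0.02 and no call (42.1% of all features were above 0, and 0.00844% were called in each direction). That median was -0.15 without old HIIT 1 and 0.195 with the marker scores as covariates, so its sign depended on the setting. With slide as a term it was 0.28, but in that model the old HIIT signal enters this difference with a minus sign. The slide model thus does not check old HIIT against adult control.

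In adult mice interval training was compared with control on one slide. All 34 genes had a higher mean in adult HIIT than in adult control, against 47.6% of all features, with a median of 0.20 against -0.01. No gene passed the test (limma, smallest adjusted p = 0.914; 0% of all features were called), and 2 were higher with an unadjusted p under 0.05, 5.88% beside 1.84% of all features. Those 2 were Acsl1, at 2.51, 2.89, 2.55 and 3.07 in adult HIIT and 2.23, 2.20, 1.91 and 2.38 in adult control (0.57 ± 0.20), and Acadm (0.59 ± 0.25). Acsl1, Pnpla2 and Lipe did not overlap between the groups, 8.82% of the 34 beside 1.4% of all features. Lipe was at -1.92, -1.60, -1.02 and -1.88 on adult HIIT 1 to 4, against -1.96, -2.495, -2.36 and -1.98 on the adult controls, so that it was highest on adult HIIT 3. The adipocyte score was -0.046, 0.78, 2.87 and 0.94 on adult HIIT 1 to 4, against -0.48 to 0.37 on the adult controls, and it too was highest on adult HIIT 3. The keratinocyte score was 7.15 and 3.30 on adult HIIT 3 and 4 and -0.135 and -0.126 on adult HIIT 1 and 2, against -0.31 to 0.33 on the adult controls. The part of these markers in the 3 genes was not tested. The shift was uneven within the group: the members' score, their median deviation from the adult control mean, was -0.003, 0.32, -0.02 and 0.62 on adult HIIT 1 to 4, against 0.09, -0.07, -0.11 and 0.09 on the adult controls. Without adult HIIT 4 the median difference of the 34 was 0.08, and 31 were above 0. The slow-twitch fibre score, over 10 genes of slow fibres, which are rich in fat-oxidising enzymes, was -0.35, 1.96, 1.11 and 1.88 on adult HIIT 1 to 4 and -0.87, 1.36, -0.46 and -0.004 on the adult controls, and its part in these values was not tested.

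For continuous training in adult mice, with 3 arrays, neither a call nor a stable direction of the 34 genes was found. In adult MICT against adult control 18 of 34 differences were above 0 (43.9% of all features), the median was 0.01, the range was -0.43 (Lpl) to 0.485 (Lipe), and 0 genes were called, as were 0% of all features, with 0 of the 34 and 2.11% of all features at an unadjusted p under 0.05 (limma). Pdk4 differed by 0.82 ± 0.82 and Acot2 by 0.35 ± 0.61, and the intervals leave room for changes of more than 1 unit. With slide as a term 33 of the 34 were above 0 with a median of 0.41, in the model that gives adult and old mice the same MICT difference. No adult MICT signal enters that difference. With the lymphocyte, adipocyte and slow-twitch scores as covariates 31 were above 0 with a median of 0.25. Neither fit gave a call. Without adult MICT 1 the median was -0.09. The slow-twitch score was 1.065, -2.14 and -1.49 on adult MICT 1, 3 and 4, against -0.87 to 1.36 on the adult controls. Against adult MICT, which lies on another slide, adult HIIT had 31 of 34 differences above 0 (52.1% of all features) with a median of 0.21 and no call (0% of all features were called). With slide as a term 5 of 34 were above 0 with a median of -0.14, but in that model this difference is that of old HIIT against old MICT. The slide model thus does not check the direction in adult mice. With the marker scores as covariates 16 of 34 were above 0 with a median of -0.02. The median was 0.10 without adult HIIT 4, 0.135 without adult MICT 3 and 0.37 without adult MICT 1. The MICT responses were also compared between the ages, as old minus adult. Old control and adult MICT share a slide and are both subtracted in this difference, so a shift of that slide would not cancel. The model with slide as a term assumes that there is no such difference and cannot estimate it. The difference of the MICT responses, old minus adult, was above 0 for 32 of 34 genes and 64.4% of all features, with a median of 0.63 against 0.21 over all features. No gene was called (0.582% of all features were called higher and 0.0844% lower), and 15 were higher with an unadjusted p under 0.05, 44.1% beside 18.9% of all features. Acacb, with 0.95 ± 0.29, had the smallest adjusted p (limma, 0.0924), and Mlycd, with 1.30 ± 0.46, had the largest difference (adjusted p = 0.118). Without old control 3 the count called was 5. Without old controls 1 and 2 together the median was 0.41 with 3 genes at an unadjusted p under 0.05, and with the marker scores as covariates it was 0.37 with 1. The same difference for HIIT was above 0 for 26 of 34 genes and 60.7% of all features, with a median of 0.21 and no call (0% of all features were called). Without old controls 1 and 2 together 17 of 34 were above 0 and the median was -0.003, and without old HIIT 1 it was 0.06.

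Lymphocyte markers were high in old control and in old HIIT, while the members' score averaged -0.38 in old control and 0.04 in old HIIT. On old HIIT 1 to 4 the score of B and plasma cells was 1.15, 4.26, 0.95 and 1.245. The members' score on the same arrays was 0.56, 0.007, -0.27 and -0.13. Scores of B and plasma cells lay at -0.05 to 0.42 on the old MICT arrays and at 6.13, 4.74, 2.43 and 1.92 on old controls 1 to 4, and on the same old controls the score of T and NK cells stood at 4.47, 3.65, 2.31 and 1.24. The summed level of the 7 tested B and plasma cell markers, relative to each array's 75th percentile, was 0.782 to 1.78 in old MICT and 2.24 to 57 in old control, and all 7 were above background on at least 1 old control array. The muscle fibre score averaged 0.13 ± 0.24 in old MICT and -0.30 ± 0.47 in old control (SD, n = 4 each). On the old controls the members' score was -0.53, -0.53, -0.05 and -0.41. Old control 4 had the lowest B and plasma cell score of its group, and its members' score lay below that of old control 3. Markers of neutrophils and mast cells scored 1.28, 1.62, 0.27 and 7.23 on old controls 1 to 4. Macrophage markers scored 0.54, 0.59, -0.16 and 1.30 on the same arrays. On old HIIT 1 and old MICT 3 the neutrophil and mast cell markers scored 5.66 and 4.20, beside members' scores of 0.56 and 0.38. The part of these markers in the members' score was not tested. In adult controls, where Cd79a, Ms4a1 and Spib were above background on no array, the members' score stayed between -0.11 and 0.09. Old controls 1 and 2, the lowest in members' score, were left out together. The count called in old MICT against old control was then 0, with 33 of 34 differences above 0 and a median of 0.37. With the lymphocyte, adipocyte and slow-twitch scores as covariates the count was 0, 32 differences were above 0 and the median was 0.67. The slow-twitch score was 1.22 on old control 3, the highest of its group, and -1.41 to -0.57 in old MICT.

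**Figure D4:**
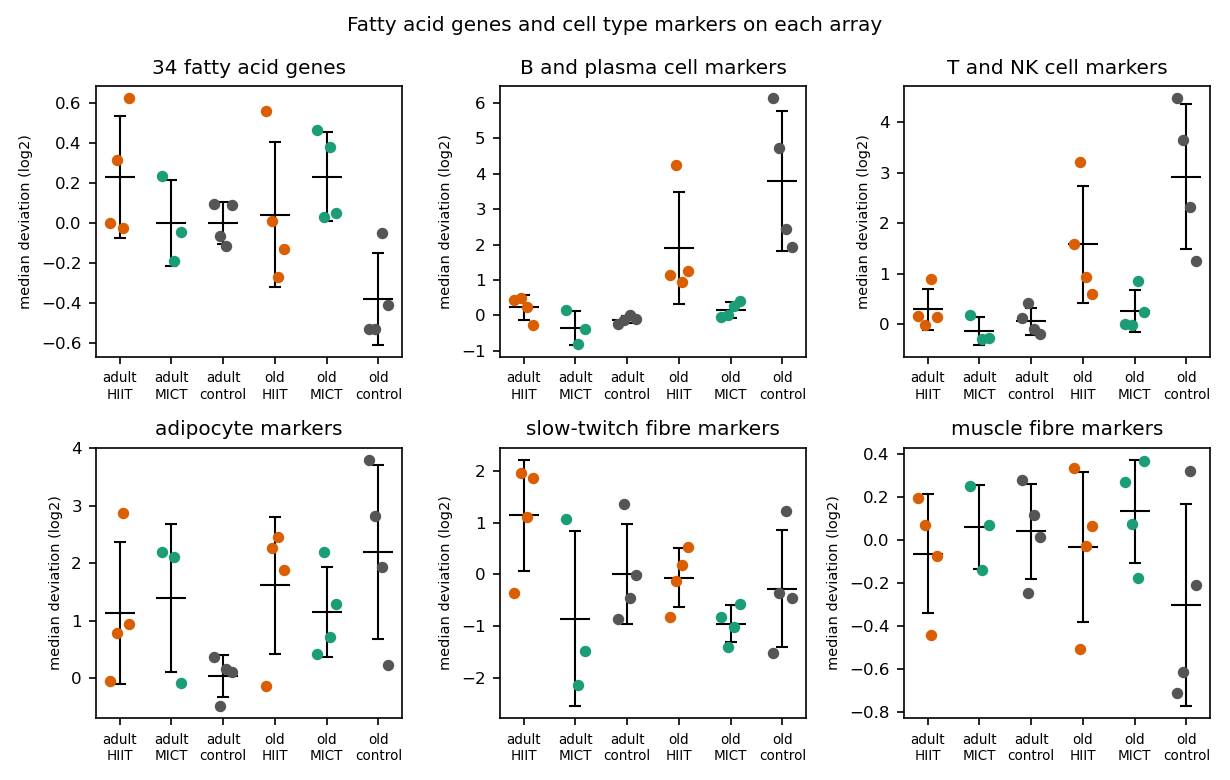
Median log2 deviation from the adult control mean (vertical axis) of the 34 genes and of 5 marker lists on each array, by group; points are arrays in the order of their replicate number, and the bar and whiskers are the mean and SD. Old controls 1 and 2 have the highest B and plasma cell and T and NK cell scores and, with -0.53 each, the lowest score of the 34 genes. Old HIIT 2, next in both marker scores, has a score of the 34 genes of 0.007.

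Promoter sequence was looked at because most of the 34 genes rose in old MICT against old control and because PPAR receptors act on many of them. The window was the 250 bases before and 50 after the start of each gene, from RefSeq on GRCm38.p6, and 29 of the 34 genes had one, 33 windows in all; Acaa2, Cpt1b, Crat, Decr1 and Lpl had no entry. The full PPAR element AGGTCANAGGTCA, searched on both strands, was in 0 of the 33 windows and in 0.0396% of all 32851 windows, and the looser form AGGNCANAGGNCA was in 0 of 33 and 0.381%. The half-site AGGTCA, on either strand and part of the longer motif, was in 6 of 33 windows (18.2%), those of Acacb, Acadm, Acadvl, Cd36, Cpt1a and Echs1, against 16.3% of all windows. Shown are the 250 bases before the start of the genes with the largest differences in old MICT against old control, Mlycd at chr8:119394644-119394893 (plus strand) and Pnpla2 at chr7:141454938-141455187 (plus strand), and of 2 β-oxidation genes that rose and hold the half-site, Echs1 at chr7:140116422-140116671 (minus strand) and Acadvl at chr11:70015429-70015678 (minus strand). Each is written 5′ to 3′ on the strand of its gene, with the half-site in capitals.
Mlycd: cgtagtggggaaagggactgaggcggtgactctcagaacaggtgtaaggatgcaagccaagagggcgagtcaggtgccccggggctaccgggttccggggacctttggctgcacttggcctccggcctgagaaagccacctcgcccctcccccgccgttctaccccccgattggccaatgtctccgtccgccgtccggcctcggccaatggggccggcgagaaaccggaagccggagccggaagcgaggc
Pnpla2: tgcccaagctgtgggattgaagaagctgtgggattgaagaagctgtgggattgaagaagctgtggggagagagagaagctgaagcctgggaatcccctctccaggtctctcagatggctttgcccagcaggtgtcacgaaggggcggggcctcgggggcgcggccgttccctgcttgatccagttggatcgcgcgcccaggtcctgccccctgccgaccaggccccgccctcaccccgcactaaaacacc
Echs1: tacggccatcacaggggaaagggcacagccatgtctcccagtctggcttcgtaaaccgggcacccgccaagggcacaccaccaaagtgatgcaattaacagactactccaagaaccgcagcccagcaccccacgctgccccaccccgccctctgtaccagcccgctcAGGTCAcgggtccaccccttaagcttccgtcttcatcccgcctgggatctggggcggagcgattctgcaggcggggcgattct
Acadvl: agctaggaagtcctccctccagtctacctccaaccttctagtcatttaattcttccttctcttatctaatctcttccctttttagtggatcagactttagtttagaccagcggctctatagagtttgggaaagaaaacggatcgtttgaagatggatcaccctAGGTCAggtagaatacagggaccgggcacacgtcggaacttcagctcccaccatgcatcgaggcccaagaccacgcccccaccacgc
Counted from the gene's start, the first base of the half-site was at -83 in Echs1 and at -87 in Acadvl, and the windows of Mlycd and Pnpla2, the genes that rose most, held none. A match is only a match of letters in this short window, and elements farther away were not searched.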

How the data were processed

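RNA of gastrocnemius muscle was labelled with Cy3 from 200 ng of total RNA and hybridised to 23 one-colour Agilent arrays, per the labels' protocols. The scanner files hold spot intensities, which the authors' scanner software, Feature Extraction 12.0.3.1 per the file headers, had already background-subtracted. Each array has 62976 spots, of which 3671 were controls and left out. Probes with all spots flagged on at least 1 array (283) were dropped, spots of a probe were averaged, and the log2 of the processed intensity minus the array's 75th percentile was used. Between 47.2% and 58.9% of spots per array were well above background, and the number of arrays limits the precision. A probe had to be well above background on at least 3 arrays (31941 probes). RefSeq accessions were turned into symbols through a RefSeq table (28331 of 29786 probes), and the probe with the highest mean signal stood for a gene, which gave 23707 features. The deposited value table holds a score of unstated scale, per the file headers and values, with a median of -0.3 to -0.1 by array. Over the spots of an array it followed the log2 processed signal with a correlation of at least 0.99954, so it was not centred by gene. It served as an alternative only.

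Groups came from the sample labels. Differences between group means were fitted with limma 3.58.1 in R 4.3.3 (lmFit, eBayes with an intensity trend) over all arrays, with Benjamini-Hochberg adjustment over all features. The code was tested on simulated data. Alternatives changed the scaling, background correction, filter, probe choice, arrays, variance model and covariates. The named genes are all 34; signals by array are given for up to 2 called genes a step with the smallest adjusted p, and neighbouring genes for the 3 called with the smallest adjusted p plus Pdk4, Ucp3, Acot2, Slc25a20, Ppargc1a and Plin2. The members, gene lists and alternatives were chosen with earlier results of these data known.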

Additional observations from a re-analysis of the deposited data

Results flagged for a closer look

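Within groups of 4 arrays, 4 of the 175 tested sets of signals had 1 array far from the other 3, a share of 2.29%, where chance alone gives about 1 in 20. Fabp3 was at 8.958 on old HIIT 1, against 7.67 to 7.847 on the other old HIIT arrays. Mlycd was at 5.542 on old control 3, against 4.788 to 4.861 on the other old controls. Decr1 was at 5.963 on old control 3, against 5.377 to 5.429 on the other old controls. Hadhb was at 6.908 on adult control 4, against 6.784 to 6.789 on the other adult controls. No difference between the responses of old and adult muscle passed the test for any of the 34 genes.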

How the results depend on the processing

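For old MICT against old control the count of 22 genes that rose was 7 under quantile scaling, 14 with normexp background and 5 in the deposited value table. It was 0 when only the compared arrays entered the fit (0 of all features were called), with slide as a term, with composition covariates, without old controls 1 and 2 together and without old MICT 1 and 2 together, and 6 to 26 with 1 array left out. With no filter it was 16, and the other alternatives gave 18 to 23; 0 genes fell under any. The fits of fewer arrays also had fewer degrees of freedom, while the scaling, background and deposited-table alternatives kept all 23 arrays. The cause of these shifts was not tested. For old control against adult control the count of 3 was 1 without a filter, 12 with array weights, 0 with only the compared arrays, slide, composition covariates or without old controls 1 and 2 together, and 0 to 12 with 1 array left out. Array weights gave 1 call for adult HIIT against adult control, 15 for adult HIIT against adult MICT and 14 for the difference of MICT responses, which was 0 to 5 with 1 array left out. Old HIIT against old control gave 0 to 2 with 1 array left out. Old MICT against adult control gave 1 under quantile scaling, 1 under the stricter filter, 3 without old control 4 and old HIIT 1 together and 0 to 3 with 1 array left out. Apart from the fit of only the compared arrays, the share of all features called under each alternative is not given here. The counts therefore show only how far the calls depend on the setting, and not whether they exceed the background of that fit.

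Deviations from the group means were weakly correlated between same-numbered arrays (55 pairs of arrays of different groups, median correlation 0.04, range -0.44 to 0.40, 20 of them over 0.1). Differently numbered arrays had a median of -0.03 (165 pairs, range -0.60 to 0.58, 39 of them over 0.1). These values do not settle whether the numbers pair the samples. With the replicate block 22 genes rose in old MICT against old control, 21 of them shared with the fit without it, and 3 fell in old control against adult control.

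Some single differences changed sign. With slide as a term these were Plin2 in adult MICT (0.504), old HIIT (0.786) and old MICT (0.504) against control, Slc25a20 in adult MICT (0.574), Acly in old MICT (0.058), and, in old control against adult control, Acadsb (0.049), Acot2 (0.397), Eci1 (0.043), Etfa (0.177), Etfb (0.052), Ppara (0.323) and Slc25a20 (0.111). In adult HIIT against adult MICT they were Acads (-0.075), Eci1 (-0.176) and Lpl (-0.074), which in that model are the values of old HIIT against old MICT. Its difference of each regimen from control is the same at both ages, and its difference of old control from adult control takes in signals of the trained groups. With composition covariates the sign changes were Slc25a20 (0.309) and Ucp3 (-0.133) in adult MICT, Acsl6 (-0.101) in old MICT, and Got2 (0.021) and Pparg (-0.056) in old control. Ucp3 in adult HIIT was -0.013 with normexp. Ppargc1a in old MICT was -0.171 under quantile scaling, -0.05 in the deposited table, -0.007 once old control 4 and old HIIT 1 were left out and -0.134 once old controls 1 and 2 were left out, and in old HIIT it was -0.086 without old controls 1 and 2. With 1 array left out, Pdk4 (-0.003 to 0.581) and Ucp3 (-0.194 to 0.36) in adult HIIT, Plin2 (-0.312 to 0.071), Slc25a20 (-0.247 to 0.05) and Ucp3 (-0.127 to 0.472) in adult MICT, and Ppargc1a in old HIIT (-0.011 to 0.197) and old MICT (-0.164 to 0.179) reached both signs. None of those 7 differences was called. All 34 genes lay above background on every array, so dim signal limits none of them.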

Other observations

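The genes beside the 34 were tallied by list in old MICT against old control, where 21.2% of all features rose and 9.03% fell. Among other genes of mitochondrial oxidation 6 of 11 rose and 0 fell. Among PPAR targets and regulators 8 of 17 rose and 0 fell, among genes of activation and thioesterases 5 of 12 rose and 1 fell, and among peroxisomal genes 4 of 13 rose and 1 fell. In the list of lipid droplets and lipolysis 2 of 10 rose and 1 fell, in that of uptake and lipoprotein handling 2 of 8 rose and 2 fell, and in that of malonyl-CoA and AMPK 2 of 8 rose and 1 fell. In carnitine transfer 1 of 4 rose and 0 fell, and in ketone body use 1 of 3 rose and 0 fell. No test compared these lists with each other.

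Further genes, picked out after their values were seen, showed the split between old MICT arrays that Pdk4 and Ucp3 showed. Foxo1, a transcription factor active in fasting, was at 5.80, 5.80, 2.67 and 2.97 in old MICT, against 2.47, 2.31, 2.15 and 2.09 in old control, and rose by 2.05 ± 0.52 (limma, adjusted p = 0.00944). Klf15, a factor that glucocorticoids induce, was at 3.95, 3.73, 2.16 and 1.87 in old MICT, against 1.15, 0.91, 1.42 and 1.11 in old control, and rose by 1.78 ± 0.37 (limma, adjusted p = 0.00458). In both, old MICT 1 and 2 stood well above old MICT 3 and 4, and old HIIT 1 and 2, at 3.78 and 3.50 for Foxo1 and 2.57 and 1.99 for Klf15, above old HIIT 3 and 4. Plin5, which ties lipid droplets to mitochondria, did not follow this order in old MICT, at 6.22, 4.99, 5.16 and 3.80, against 2.19, 2.64, 3.73 and 3.12 in old control.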
